A study of Homo sapiens with 12 samples.

Results

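Activator protein 1 (AP-1) is a dimer of basic leucine zipper (bZIP) proteins, and the 9 genes described here encode subunits it can be built from. They are the JUN genes JUN, JUNB and JUND, the FOS genes FOS, FOSB, FOSL1 and FOSL2, and the related BATF and BATF3. The genes were taken as a listed family and matched by symbol to the Ensembl identifiers of the deposited tables. All 9 were matched, among 33704 genes with a read in at least 1 of 12 libraries.

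JUN proteins pair with each other or with FOS proteins, while FOS proteins need a JUN partner to bind DNA. BATF proteins have the zipper but lack a transactivation domain of the FOS kind, and they pair with JUN proteins and act with IRF factors on lymphocyte genes. In T cells AP-1 is known as the part of the antigen receptor response that is switched on through MAP kinases and that binds DNA together with NFAT. FOS and JUN are classical immediate early genes, and their mRNAs are short-lived.

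The libraries were made from mRNA of Jurkat cells, an established human line from a T-cell leukaemia, and form 6 groups of 2. In 2 of the comparisons cells carried an shRNA switched on by doxycycline, aimed at TAL1, a blood stem cell transcription factor, or at UTX, the histone demethylase encoded by KDM6A. TAL1-control and UTX-control cells had no doxycycline, and TAL1-KD and UTX-KD cells had 5 µg/ml of it for 72 h. J4-control cells had the vehicle DMSO and J4-2uM cells had 2 µM GSK-J4, an inhibitor of histone H3 lysine 27 demethylases, each for 72 h. The shRNA lines and their controls were grown with Tet-free serum, blasticidin and G418, and the cells of the GSK-J4 comparison without these. A doxycycline arm without a targeting shRNA is not among the groups used here, so effects of the shRNA and of doxycycline cannot be told apart. The labels do not say whether the libraries of a group came from separate cultures, so p-values measure only the spread between them, which may be technical.

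Each library held 55524079 to 82534711 counted reads. All 11 T-cell markers listed reached a level of 1 CPM (the reads of a gene scaled to the size of its library, after TMM scaling of the 12 libraries) in every group. Their summed level was 3085 to 3225 CPM in TAL1-control and 3850 to 4522 CPM in TAL1-KD, 2799 to 2838 and 3166 to 3235 CPM in UTX-control and UTX-KD, and 2119 to 2121 and 2021 to 2077 CPM in J4-control and J4-2uM. Taken singly, 3 of the 11 T-cell markers were higher and 1 lower in TAL1-KD at an edgeR adjusted p under 0.05. The counts were 8 and 2 in UTX-KD, and 4 and 6 with GSK-J4, beside 54.2%, 50.5% and 74.9% of all genes in either direction. Of the 4 B-cell markers only CD79A reached 1 CPM. They summed to 75.5 to 77.6 CPM in TAL1-control and 67.4 to 72.1 CPM in TAL1-KD, to 40.2 to 41.2 and 58.0 to 59.5 CPM in UTX-control and UTX-KD, and to 36.6 to 36.8 and 77.2 to 85.4 CPM in J4-control and J4-2uM. CD79A rose by 0.51 in UTX-KD and by 1.15 with GSK-J4 on the log2 scale (edgeR adjusted p = 5.44e-09 and 8.84e-11). The 5 myeloid markers summed to at most 1.72 CPM, and erythroid and epithelial markers to at most 0.144 CPM. The part of these marker levels in the results was not tested. The mRNAs aimed at were not shown to be lower in their own libraries. Mean TAL1 mRNA over the 2 libraries was 274 ± 2.53 CPM (SD) in its control and 265 ± 18.3 in the libraries labelled TAL1-KD (edgeR adjusted p = 0.490), and KDM6A at 31.0 ± 0.230 in UTX-control and 29.7 ± 0.102 in those labelled UTX-KD (edgeR adjusted p = 0.103). In the libraries labelled UTX-KD, TAL1 mRNA fell by 0.12 on the log2 scale (edgeR adjusted p = 0.00155). With GSK-J4, TAL1 mRNA fell by 0.66 on the log2 scale and KDM6A mRNA rose by 0.44 (edgeR adjusted p = 6.02e-10 and 1.24e-07). The 2 TAL1-KD libraries differed from each other more than those of any other group, with an SD of 0.245 for the log2 difference across genes, against 0.0642 to 0.0904.

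JUN rose in all 3 comparisons and by the most of the family in each. JUNB, JUND, FOS and FOSB rose in all 3 as well, while FOSL2 fell in UTX-KD and with GSK-J4. BATF3 rose in TAL1-KD and fell only in UTX-KD, and FOSL1 had too few reads to test. Each comparison was tested over all genes that passed edgeR's filter on low counts, with its quasi-likelihood test and Benjamini-Hochberg adjustment, and a gene was called at an adjusted p under 0.05. Where 3 values stand in a row with no other order named, they are for TAL1-KD first, then UTX-KD, then GSK-J4. Of the 9 genes, 8 passed the filter in every comparison, and these had at least 30 reads in every library.

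In the libraries labelled TAL1-KD, 7 of the 8 genes tested were called higher, 0 lower, and 1 was not called. Of all 16829 genes tested there, 54.2% were called, 26.3% higher and 27.9% lower. In those labelled UTX-KD, 5 were called higher, 2 lower and 1 was not called, beside 50.5% of 16847 genes called, 25.2% higher and 25.3% lower. With GSK-J4, 6 were called higher, 1 lower and 1 was not called, beside 74.9% of 17907 genes called, 37.9% higher and 36.9% lower. Since 50.5% to 74.9% of all genes were called, a call in either direction was common. The median log2 fold change of the 8 genes was 0.88 for TAL1-KD, 0.23 for UTX-KD and 0.53 for GSK-J4, against -0.02, 0.01 and 0.01 over all genes tested. JUN, JUNB, JUND, FOS and FOSB were called higher in all 3 comparisons, which is 62.5% of the 8, whereas 8.02% of the 16103 genes tested in all 3 were. None of the 8 was called lower in all 3, against 6.98% of those genes. The place of FOS among the 5 rests on its UTX-KD call, which DESeq2's Wald test did not give (adjusted p = 0.128). The members were also chosen with earlier results of these data known, so the 62.5% is a description. The 3 comparisons share no library. The number of genes called in the TAL1-KD comparison fell to 5525 without TAL1-control replicate 1 and to 5893 without TAL1-control replicate 2, against 9120 with both. Scaling by library totals alone would move the median of all genes by -0.14, 0.09 and 0.17 and turn the share of calls that are higher from 48.5%, 49.8% and 50.7% into 35.5%, 70.1% and 63.6%.

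**Figure D1:**
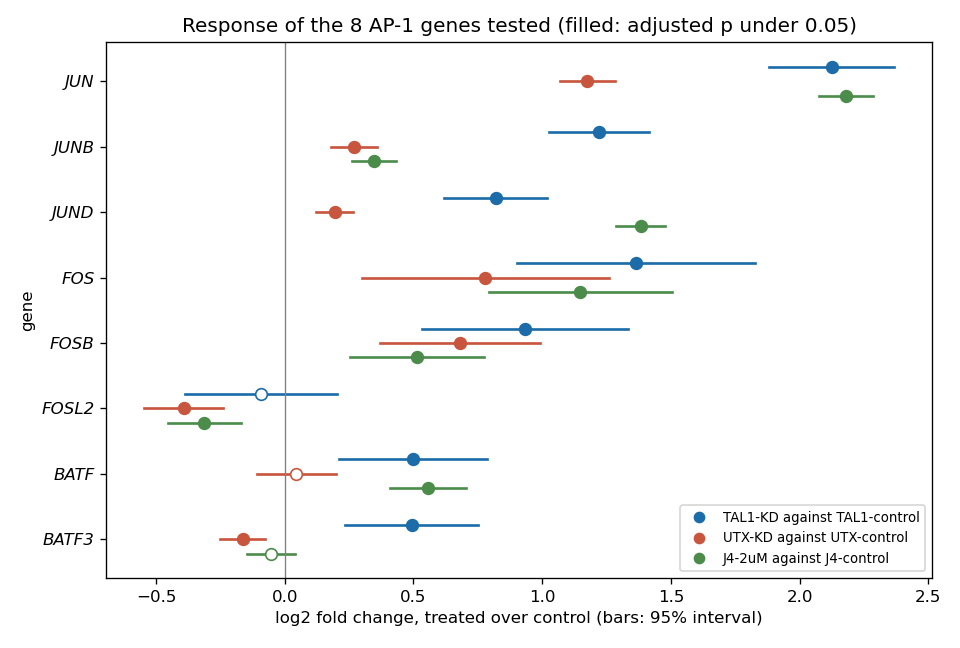
Log2 fold change (x axis) of the 8 AP-1 genes tested (y axis) in the 3 comparisons, each over its own control, as points with 95% intervals and filled where the adjusted p was under 0.05. JUN lies at 2.12, 1.17 and 2.18, and the 3 points of JUNB, JUND, FOS and FOSB are all filled and right of 0, while FOSL2 lies at -0.09, -0.39 and -0.31.

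JUN encodes c-Jun, the subunit whose transactivation domain is phosphorylated by the JNK kinases. It lies on chromosome 1 on the minus strand in 1 exon. JUN read 26.7 and 25.7 CPM in the TAL1-control libraries and 105 and 127 CPM in those labelled TAL1-KD. It read 14.6 and 13.9 CPM in UTX-control and 31.7 and 33.9 CPM in the libraries labelled UTX-KD. It read 14.7 and 15.7 CPM in J4-control and 71.1 and 66.4 CPM in J4-2uM. The treated libraries lay above their own controls in each comparison, with no overlap, and the 2 libraries of TAL1-KD were the farthest apart. The log2 fold change was 2.12 (SE 0.10) for TAL1-KD, a 4.36-fold rise that ranked 64th from the top of the genes tested (edgeR adjusted p = 9.77e-05). It was 1.17 (SE 0.05) for UTX-KD, rank 193 (edgeR adjusted p = 7.29e-12), and 2.18 (SE 0.05) for GSK-J4, rank 314 (edgeR adjusted p = 5.44e-13). From high to low the group means ran TAL1-KD, J4-2uM, UTX-KD, TAL1-control, J4-control and UTX-control, and no 2 neighbouring groups overlapped.

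JUNB, which can hold back c-Jun target genes and is itself induced by many signals, lies on chromosome 19 on the plus strand in 1 exon. It read 27.9 and 28.6 CPM in TAL1-control and 64.0 and 69.7 CPM in the libraries labelled TAL1-KD. It read 26.7 and 27.3 CPM in UTX-control and 32.4 and 33.6 CPM in UTX-KD. With the vehicle it read 29.9 and 29.6 CPM, and with GSK-J4 38.2 and 37.1 CPM. All 6 control libraries lay between 26.7 and 29.9 CPM, and the TAL1-KD libraries stood well above every other one. JUNB rose by a log2 fold change of 1.22 (SE 0.08) in the TAL1-KD comparison (edgeR adjusted p = 0.000173). The rises were 0.27 (SE 0.04) for UTX-KD and 0.35 (SE 0.04) for GSK-J4 (edgeR adjusted p = 4.33e-05 and 3.34e-06). From high to low the group means ran TAL1-KD, J4-2uM, UTX-KD, J4-control, TAL1-control and UTX-control, without overlap between neighbours.

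JUND, the JUN gene that is expressed broadly and depends least on stimulation, lies on chromosome 19 on the minus strand and has annotated transcripts of 1 or 2 exons. It read 99.3 and 101 CPM in TAL1-control and 169 and 191 CPM in the libraries labelled TAL1-KD. It read 62.5 and 64.4 CPM in UTX-control and 74.7 and 72.6 CPM in UTX-KD. It read 55.6 and 53.3 CPM in J4-control and 148 and 135 CPM in J4-2uM. The TAL1-control libraries lay above both libraries of UTX-KD, so the control level of JUND differed between the arms of the study. JUND rose by 1.38 (SE 0.04) on the log2 scale with GSK-J4, by 0.82 (SE 0.09) in TAL1-KD and by 0.19 (SE 0.03) in UTX-KD, with edgeR adjusted p of 1.16e-11, 0.000481 and 0.00013. From high to low the group means ran TAL1-KD, J4-2uM, TAL1-control, UTX-KD, UTX-control and J4-control, without overlap between neighbours.

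Because JUN, JUNB, JUND, FOS and FOSB rose in every comparison, the 250 bases before their start sites are shown, from RefSeq on GRCh38.p14, each 5′ to 3′ on the strand of its gene. Capitals mark matches on either strand to TGANTCA (the AP-1 site), TGANNTCA (its 8-base form), TGACGTCA (the cAMP response element, which TGANNTCA contains) or TATAAA. The windows are chr1:58784048-58784297 (minus strand) for JUN, chr19:12791236-12791485 (plus strand) for JUNB, chr19:18281623-18281872 (minus strand) for JUND, chr14:75278578-75278827 (plus strand) for FOS and chr19:45467746-45467995 (plus strand) for FOSB.
JUN: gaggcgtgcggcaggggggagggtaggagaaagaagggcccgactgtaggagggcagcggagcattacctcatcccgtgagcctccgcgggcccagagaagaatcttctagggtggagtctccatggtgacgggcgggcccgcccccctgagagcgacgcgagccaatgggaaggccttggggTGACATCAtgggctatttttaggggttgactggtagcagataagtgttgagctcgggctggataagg
JUNB: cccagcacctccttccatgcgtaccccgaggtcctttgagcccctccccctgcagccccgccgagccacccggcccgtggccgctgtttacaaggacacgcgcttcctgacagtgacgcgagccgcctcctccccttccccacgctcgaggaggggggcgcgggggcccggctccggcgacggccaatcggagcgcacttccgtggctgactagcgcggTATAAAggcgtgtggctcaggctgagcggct
JUND: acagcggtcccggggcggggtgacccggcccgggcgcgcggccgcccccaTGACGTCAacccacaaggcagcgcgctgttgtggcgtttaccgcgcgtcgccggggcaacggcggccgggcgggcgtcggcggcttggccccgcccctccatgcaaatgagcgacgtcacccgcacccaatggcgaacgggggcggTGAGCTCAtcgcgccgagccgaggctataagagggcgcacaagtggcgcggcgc
FOS: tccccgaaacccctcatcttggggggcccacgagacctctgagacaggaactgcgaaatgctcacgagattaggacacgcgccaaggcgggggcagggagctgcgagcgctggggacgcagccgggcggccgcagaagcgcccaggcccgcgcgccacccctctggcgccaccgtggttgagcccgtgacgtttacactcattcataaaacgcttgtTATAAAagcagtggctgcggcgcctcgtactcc
FOSB: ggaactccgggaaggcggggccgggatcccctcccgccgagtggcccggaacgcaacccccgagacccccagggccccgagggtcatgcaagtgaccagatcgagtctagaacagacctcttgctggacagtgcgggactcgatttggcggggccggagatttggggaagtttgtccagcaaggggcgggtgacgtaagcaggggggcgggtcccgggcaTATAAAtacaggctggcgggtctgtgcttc

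Such windows were searched for 7 of the 9 genes, since the promoter sequences used here did not include FOSL1 and BATF3. In JUN, TGACATCA begins 67 bases before the start. In JUND, TGACGTCA begins 200 bases and TGAGCTCA 54 bases before it. TGANNTCA is found in 10.1% of 35116 promoter windows of this length, and TGACGTCA in 1.65%. TATAAA was found in JUNB, FOS and FOSB, beginning 31, 33 and 30 bases before the start, and in 10.7% of all windows. No match to TGANTCA, to the NF-kB consensus or to the CArG box, the site of serum response factor, was found in the 7 windows. These occur in 6.57%, 6.88% and 1.16% of all windows. Sequence outside these windows was not searched, so whether FOS or the other genes have such sites farther from the start was not tested. The GC box GGGCGG was found in 6 of the 7, all but JUNB, and in 42.6% of all windows. A match is a description of the letters, and no binding was measured.

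FOS encodes c-Fos, which forms the classical AP-1 dimer with c-Jun. Its gene lies on chromosome 14 on the plus strand. FOS had only 30 to 191 reads a library. It read 0.851 and 0.938 CPM in TAL1-control and 2.50 and 2.18 CPM in the libraries labelled TAL1-KD. It read 0.449 and 0.522 CPM in UTX-control and 0.721 and 0.958 CPM in UTX-KD. It read 0.81 and 1.21 CPM in J4-control and 2.30 and 2.27 CPM in J4-2uM. No treated library overlapped its own controls, and the 2 J4-control libraries differed widely. FOS rose by 1.36 (SE 0.20) in TAL1-KD, by 0.78 (SE 0.23) in UTX-KD and by 1.15 (SE 0.16) with GSK-J4 on the log2 scale, with edgeR adjusted p of 0.00139, 0.00852 and 2.75e-05. The UTX-KD call was lost without UTX-control replicate 1 (0.66, edgeR adjusted p = 0.0607), without UTX-KD replicate 2 (0.56, edgeR adjusted p = 0.124) and with DESeq2's Wald test (0.77, adjusted p = 0.128). From high to low the group means ran TAL1-KD, J4-2uM, J4-control, TAL1-control, UTX-KD and UTX-control, and only J4-2uM against J4-control and UTX-KD against UTX-control did not overlap among neighbours.

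FOSB, whose product has a transactivation domain like that of c-Fos, lies on chromosome 19 on the plus strand. It read 1.55 and 1.77 CPM in TAL1-control and 3.24 and 3.18 CPM in the libraries labelled TAL1-KD. It read 1.20 and 1.04 CPM in UTX-control and 1.82 and 1.87 CPM in UTX-KD. It read 1.80 and 1.69 CPM in J4-control and 2.45 and 2.49 CPM in J4-2uM. Treated and control libraries did not overlap in any comparison, but the UTX-KD libraries reached only slightly above the J4-control ones. FOSB rose by 0.93 (SE 0.17), 0.68 (SE 0.15) and 0.51 (SE 0.12) on the log2 scale, with edgeR adjusted p of 0.00342, 0.000874 and 0.00161. From high to low the group means ran TAL1-KD, J4-2uM, UTX-KD, J4-control, TAL1-control and UTX-control, and of these neighbours only J4-control and TAL1-control overlapped.

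FOSL2 and FOSL1 encode Fra-2 and Fra-1, FOS proteins that lack a strong transactivation domain. FOSL2, on chromosome 2 on the plus strand, was the FOS gene with the most reads. It read 8.06 and 7.22 CPM in TAL1-control and 7.38 and 7.21 CPM in the libraries labelled TAL1-KD, which overlap. It read 11.8 and 13.8 CPM in UTX-control and 9.45 and 10.2 CPM in UTX-KD, which do not. It read 11.1 and 10.8 CPM in J4-control and 9.10 and 8.49 CPM in J4-2uM, with both treated libraries lower. FOSL2 fell by 0.39 (SE 0.07) in UTX-KD and fell by 0.31 (SE 0.06) with GSK-J4 on the log2 scale, with edgeR adjusted p of 0.000234 and 0.000686. The GSK-J4 call was lost when libraries were scaled by their totals alone (-0.14, edgeR adjusted p = 0.0635). In TAL1-KD FOSL2 stood at a log2 fold change of -0.09 (95% interval -0.39 to 0.20, edgeR adjusted p = 0.567). From high to low the group means ran UTX-control, J4-control, UTX-KD, J4-2uM, TAL1-control and TAL1-KD, and only the last pair overlapped. FOSL1, on chromosome 11 on the minus strand, had 1 to 8 reads a library and 44 in all 12. It passed the filter in no comparison and its level could not be compared at this depth.

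BATF lies on chromosome 14 on the plus strand and BATF3 on chromosome 1 on the minus strand, and both are best known from lymphocytes and dendritic cells. BATF read 5.52 and 5.69 CPM in TAL1-control and 8.09 and 8.01 CPM in the libraries labelled TAL1-KD. It read 6.32 and 6.42 CPM in UTX-control and 6.63 and 6.70 CPM in UTX-KD. It read 6.70 and 6.84 CPM in J4-control and 9.77 and 10.1 CPM in J4-2uM. The last group was the highest of the 6, and only UTX-KD and J4-control overlapped among neighbours in the order. BATF rose by 0.56 (SE 0.07) on the log2 scale with GSK-J4 (edgeR adjusted p = 6.13e-06) and by 0.50 (SE 0.12) in TAL1-KD (edgeR adjusted p = 0.0116). The TAL1-KD call was lost without TAL1-control replicate 1 (0.48, edgeR adjusted p = 0.160) or replicate 2 (0.52, edgeR adjusted p = 0.121). It was also lost with library totals alone (0.36, edgeR adjusted p = 0.0742) and after trends with GC content and length were removed (0.23, edgeR adjusted p = 0.149). In UTX-KD the BATF log2 fold change was 0.04, with a 95% interval from -0.11 to 0.20 (edgeR adjusted p = 0.642).

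BATF3 read 19.5 and 18.0 CPM in TAL1-control and 24.6 and 29 CPM in the libraries labelled TAL1-KD. It read 32.8 and 32.9 CPM in UTX-control and 30.2 and 29.3 CPM in UTX-KD. It read 29.4 and 30.7 CPM in J4-control and 29.5 and 28.4 CPM in J4-2uM, where the ranges overlap. TAL1-control was the lowest of the 6 groups and apart from the next, UTX-control was the highest and apart from the next, and the 4 between overlapped with their neighbours. BATF3 rose by 0.49 (SE 0.11) in TAL1-KD (edgeR adjusted p = 0.00771), a call lost without TAL1-control replicate 2 (0.43, edgeR adjusted p = 0.0852). In UTX-KD it fell by 0.16 (SE 0.04) on the log2 scale (edgeR adjusted p = 0.00316), a call lost with library totals alone (-0.07, edgeR adjusted p = 0.160) and when all 12 libraries shared a fit (-0.14, edgeR adjusted p = 0.162). With GSK-J4 BATF3 stood at a log2 fold change of -0.05 (95% interval -0.15 to 0.04, edgeR adjusted p = 0.283), and the sign turned under library totals alone (0.12, edgeR adjusted p = 0.0241).

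**Figure D2:**
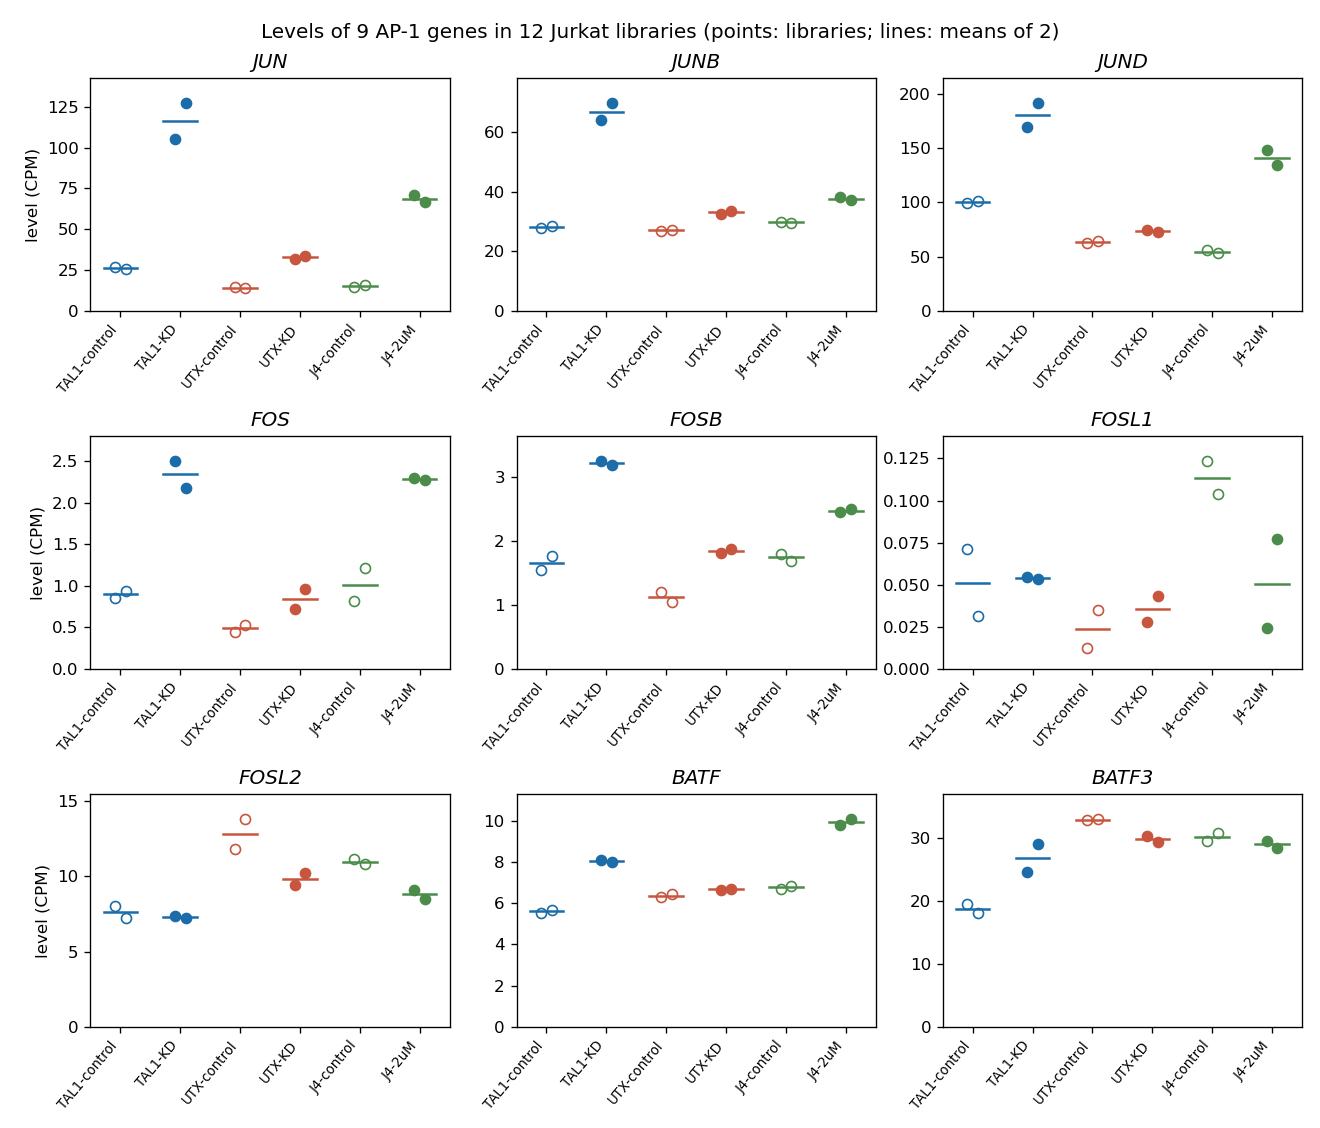
Level in CPM (y axis, from 0, with its own scale in each panel) of the 9 AP-1 genes in the 6 groups (x axis), with a point for each library, open for controls, and a line at the mean of 2. JUN in TAL1-KD, at 105 and 127 CPM, stands above every other group, and FOSL1 stays at or below 0.123 CPM.

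JUNB and FOSB are overlapped on the opposite strand by HOOK2 and ERCC1, which were looked at after the values were seen. The library kit keeps strand, but the strand setting of the counting is not given in the sources used here, so reads of a pair may not be told apart. ERCC1 had 3416 to 5682 reads a library, against 60 to 204 for FOSB. HOOK2 had 1148 to 2216, against 1568 to 3896 for JUNB. Whether the overlap added reads of these neighbours to FOSB and JUNB, or left some of their own reads uncounted, was not tested. HOOK2 changed by 0.08, 0.35 and 0.12 and ERCC1 by 0.09, 0.12 and -0.07 on the log2 scale. HOOK2 and ERCC1 were called only in UTX-KD (edgeR adjusted p = 6.69e-06 and 0.00464). FOSL2 has 2 overlapping genes, with at most 7 reads in a library.

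Levels were compared between genes per length, as CPM per kb of the longest annotated transcript. On that scale JUND was the largest member in every library, with 58.0% to 70.3% of the JUN gene level. The 9 genes summed to 92.1 and 92.8 CPM per kb in TAL1-control and to 177 and 200 in TAL1-KD. They summed to 75.0 and 76.6 CPM per kb in UTX-control against 88.7 and 88.8 in UTX-KD, and to 72.3 and 72.0 in J4-control against 146 and 137 in J4-2uM. The family sum was thus higher in treated libraries in each comparison, and JUN genes made most of it in all 12.

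The make-up of the family is described by each gene's share of the summed level. JUN made up 9.91% and 9.39% of the JUN gene level per kb in TAL1-control and 19.1% and 20.3% in TAL1-KD. It made up 7.90% and 7.34% in UTX-control and 13.4% and 14.3% in UTX-KD, and 8.21% and 9.0% in J4-control and 16.7% and 16.8% in J4-2uM. JUNB moved in another way, from 32.6% and 33.0% in J4-control to 17.4% and 18.3% in J4-2uM, but from 20.1% and 20.3% in TAL1-control to 22.6% and 21.6% in TAL1-KD. FOSL2 made up 58.7% and 53.9% of the FOS gene level per kb in TAL1-control and 34.9% and 36.3% in TAL1-KD. It made up 76.8% and 79.2% in UTX-control and 62.9% and 61.1% in UTX-KD, and 64.2% and 60.2% in J4-control and 44.0% and 41.8% in J4-2uM. The FOS and FOSB shares were less even between libraries of a group, with FOS at 14.5% and 20.9% of the FOS gene level in J4-control and FOSB at 13.8% and 10.7% in UTX-control. The FOS genes together held 1.48% to 3.73% of the family level per kb in the 12 libraries. These shares are descriptions with 2 libraries a group, and transcript use within a gene is not known from gene counts. The shares rest on the longest annotated transcript and were not recomputed with another length.

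**Figure D3:**
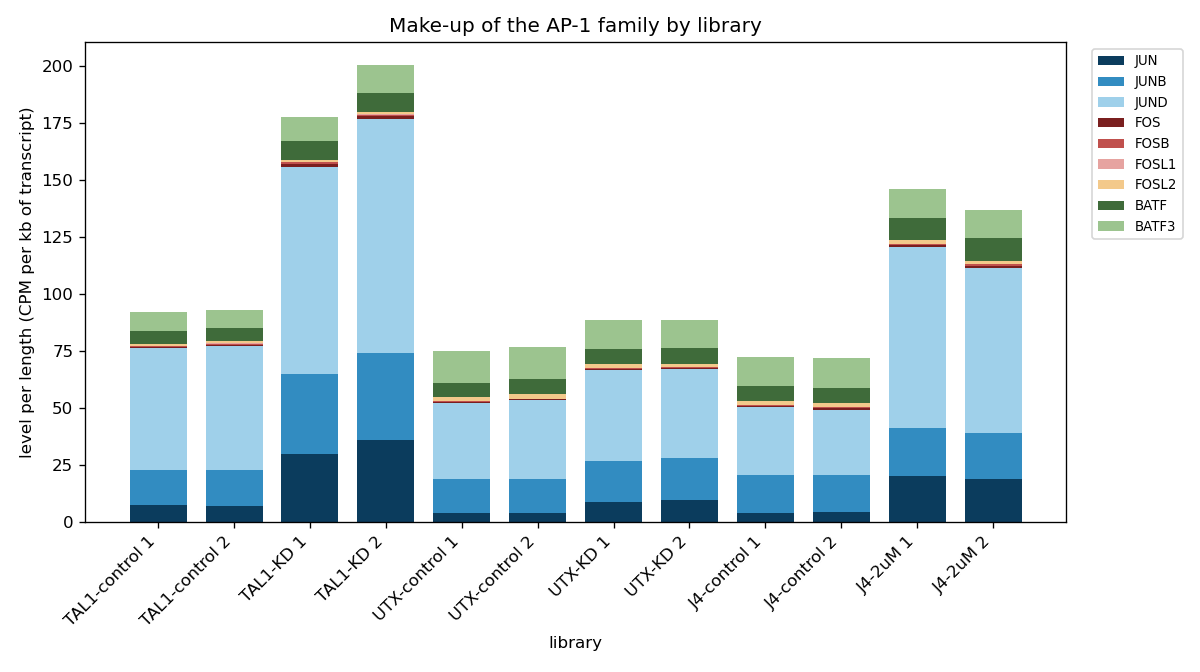
Stacked level per length (y axis, CPM per kb of transcript, from 0) of the 9 AP-1 genes in each of the 12 libraries (x axis). JUND is the tallest block in every bar, the JUN block widens in treated libraries, and the family sum is highest in TAL1-KD, at 177 and 200 CPM per kb.

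Whether the 3 treatments moved a gene by different amounts was tested in edgeR as an interaction over the 8 libraries of 2 comparisons. Such a fit takes 1 spread per gene for all 8 libraries, although the TAL1-KD libraries differed more from each other. As a coefficient of variation, the spread beyond counting noise was 8.40% in the TAL1-KD comparison, 2.30% in UTX-KD and 5.97% over both. SEs and p-values of differences with TAL1-KD may therefore be too small. Between TAL1-KD and UTX-KD, 5 of the 8 genes tested differed, beside 50.1% of all genes. Between TAL1-KD and GSK-J4, 3 of 8 differed, beside 53.9% of all genes, and between UTX-KD and GSK-J4, 3 of 8, beside 58.4%. The first of these counts is near the share over all genes but above it, and the others are below it.

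JUN rose by 0.98 (SE 0.12) more on the log2 scale in TAL1-KD than in UTX-KD (edgeR adjusted p = 0.00028), and less in UTX-KD than with GSK-J4, by a difference of -1.01 (SE 0.07, edgeR adjusted p = 1.74e-12). Between TAL1-KD and GSK-J4 no difference was shown for JUN, at -0.03 with a 95% interval from -0.30 to 0.25 (edgeR adjusted p = 0.870), and with 1 library left out at a time it ran from -0.16 to 0.11. JUNB rose more in TAL1-KD than in UTX-KD, by 0.98 (SE 0.09), and than with GSK-J4, by 0.90 (SE 0.09), with edgeR adjusted p of 5.46e-05 and 1.44e-05. For JUNB the UTX-KD and GSK-J4 rises differed by -0.09, with a 95% interval from -0.21 to 0.04 (edgeR adjusted p = 0.232). JUND was ordered otherwise than JUNB: it rose more with GSK-J4 than in TAL1-KD, with a difference of -0.53 (SE 0.10), and more in TAL1-KD than in UTX-KD, with a difference of 0.66 (SE 0.09), at edgeR adjusted p of 0.00142 and 0.000406. From UTX-KD to GSK-J4 the JUND difference was -1.20 (SE 0.06, edgeR adjusted p = 2.9e-16).

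The FOS genes were not shown to respond differently between comparisons. For FOS the differences were 0.62, 0.24 and -0.38 (TAL1-KD minus UTX-KD, TAL1-KD minus GSK-J4, UTX-KD minus GSK-J4), with edgeR adjusted p of 0.107, 0.488 and 0.281. The 95% interval of the largest ran from -0.04 to 1.28, so the depth of FOS leaves a wide range. For FOSB they were 0.28, 0.45 and 0.16, with edgeR adjusted p of 0.269, 0.0643 and 0.507, and for FOSL2 0.34, 0.25 and -0.09, with 0.0793, 0.122 and 0.468. The FOSB difference between TAL1-KD and GSK-J4 was called when all 12 libraries shared a fit (0.45, edgeR adjusted p = 0.0389), and the FOSL2 difference between TAL1-KD and UTX-KD without TAL1-KD replicate 2 (0.36, edgeR adjusted p = 0.0314). BATF rose less in UTX-KD than in TAL1-KD or with GSK-J4, with differences of 0.49 (TAL1-KD minus UTX-KD) and -0.52 (UTX-KD minus GSK-J4) and edgeR adjusted p of 0.00715 and 6.11e-05. The SE of the first was 0.117, below the 0.123 of the TAL1-KD change alone, whose call was lost in several settings. BATF3 rose more in TAL1-KD than it moved in either other comparison, by 0.69 and 0.57 (edgeR adjusted p = 0.00118 and 0.0021).

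Proteins that pair with AP-1 subunits or compete for similar sites were followed in a list of 13 bZIP genes, of which 12 were tested in each comparison. In TAL1-KD 7 were called higher and 1 lower, in UTX-KD 7 and 2, and with GSK-J4 11 and 1. Among all genes tested, 26.3% were called higher and 27.9% lower in TAL1-KD. The shares were 25.2% and 25.3% in UTX-KD, and 37.9% and 36.9% with GSK-J4. Their median log2 fold changes were 0.44, 0.23 and 0.56, against -0.02, 0.01 and 0.01 over all genes tested, and the counts of this and the following lists are to be read against the shares of all genes called. A listed gene named below without a value for a comparison was not called in it. ATF3, a stress-induced factor, rose by 1.27 in UTX-KD and by 2.27 with GSK-J4 (edgeR adjusted p = 2.16e-12 and 8.12e-13), while its value in TAL1-KD was -0.13 (edgeR adjusted p = 0.199). CREB5, a relative of ATF2, rose from 0.959 ± 0.186 to 9.67 ± 0.522 CPM (SD, n = 2) with GSK-J4, a log2 fold change of 3.31, and rose by 1.24 in TAL1-KD. JDP2, a repressive partner of JUN proteins, rose by 1.37 in UTX-KD and by 1.07 with GSK-J4 but fell by 0.36 in TAL1-KD (edgeR adjusted p = 3.93e-11, 2.34e-09 and 0.00885). The control levels of JDP2 and ATF3 differed widely. JDP2 averaged 34.4 CPM in TAL1-control, 4.78 in UTX-control and 7.90 in J4-control, and ATF3 averaged 50.3, 11.8 and 13.2 CPM. JDP2 in TAL1-control thus stood above UTX-KD (12.6 CPM) and J4-2uM (16.5 CPM). ATF3 in TAL1-control stood above UTX-KD (28.9 CPM) but below J4-2uM (63.7 CPM). What part these levels have in the different responses was not tested. The small MAF gene MAFF rose by 1.14 in TAL1-KD and by 0.76 with GSK-J4 and fell by 0.25 in UTX-KD. BACH1, a partner of small MAF proteins, rose in all 3 comparisons, by 0.77, 0.25 and 0.51.

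**Figure D4:**
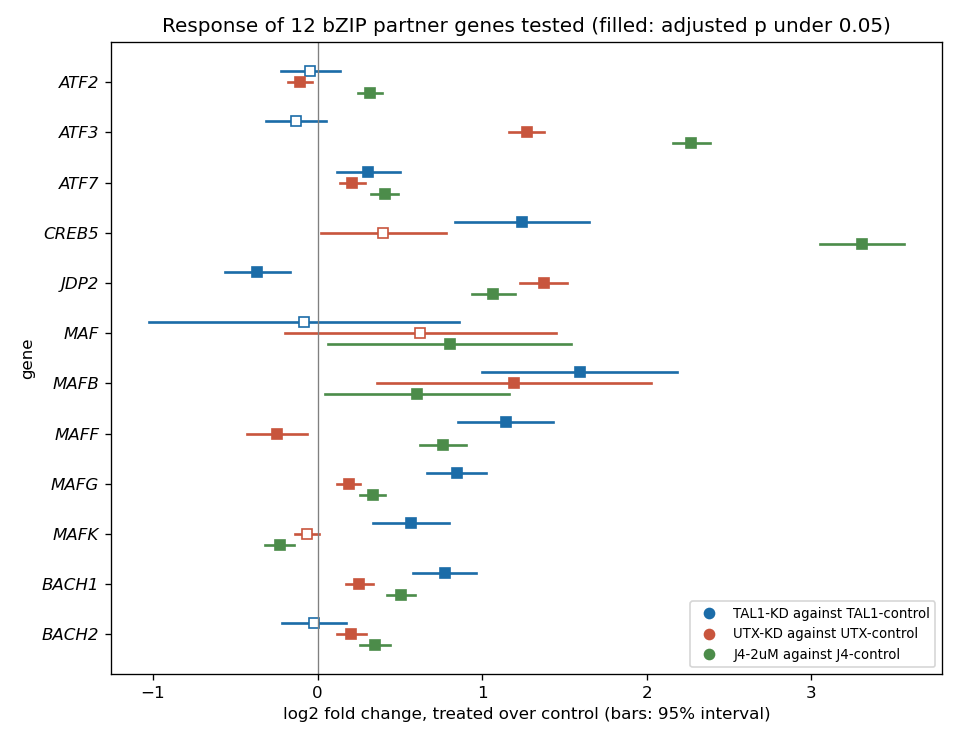
Log2 fold change (x axis) of the 12 bZIP partner genes tested (y axis) in the 3 comparisons, each over its own control, as squares with 95% intervals and filled where the adjusted p was under 0.05. ATF3 lies at -0.13, 1.27 and 2.27 and JDP2 at -0.36, 1.37 and 1.07 (in the order of the legend), and CREB5 with GSK-J4 lies farthest right, at 3.31. The control levels of ATF3 and JDP2, not drawn here, were highest in TAL1-control.

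MAP kinase genes encode kinases that phosphorylate AP-1 subunits or lie upstream of those that do. They were called in both directions, as were genes in general, of which 54.2%, 50.5% and 74.9% were called. Of 20 listed, 7 were called higher and 5 lower of 19 tested in TAL1-KD, 4 and 10 of 20 in UTX-KD, and 7 and 7 of 20 with GSK-J4, with medians of 0.17, -0.10 and 0.01. MAP3K8, an activator of ERK and JNK signalling, rose in all 3 comparisons, by 0.83, 0.41 and 0.51 (edgeR adjusted p = 0.00118, 0.0017 and 4.72e-05). MAP2K6, which activates p38, fell by 0.59 in UTX-KD and fell by 0.84 with GSK-J4. MAP2K3, also an activator of p38, rose by 0.78 in TAL1-KD, but fell by 0.31 in UTX-KD and fell by 0.24 with GSK-J4. RPS6KA3, a kinase downstream of ERK, fell by 0.77 in TAL1-KD and fell by 0.53 with GSK-J4. The phosphorylation of AP-1 proteins was not measured.

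Of 13 transcription factors and coactivators that act on the FOS and JUN promoters, 7 were called higher and 1 lower of 12 tested in TAL1-KD, 4 and 2 of 12 in UTX-KD, and 7 and 3 of 13 with GSK-J4, with medians of 0.35, 0.06 and 0.16. These counts stand beside 54.2%, 50.5% and 74.9% of all genes called in either direction. SRF, the serum response factor that acts on FOS, rose by 0.49 in TAL1-KD, but fell by 0.11 in UTX-KD and fell by 0.52 with GSK-J4 (edgeR adjusted p = 0.00752, 0.00645 and 7.01e-09). Its partner ELK1 rose by 0.66 in TAL1-KD and its partner ELK4 rose by 0.74 with GSK-J4. MEF2D, a factor that acts on JUN, rose in all 3 comparisons, by 0.35, 0.31 and 0.43, and the coactivator CREBBP rose by 0.14 in UTX-KD and by 0.69 with GSK-J4.

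Of 13 genes for turnover and repression of AP-1, all tested, 5 were called higher and 3 lower in TAL1-KD, 2 and 5 in UTX-KD, and 4 and 8 with GSK-J4, with medians of 0.10, -0.01 and -0.15. The share of all genes called in either direction was 54.2%, 50.5% and 74.9%. DET1, part of a ubiquitin ligase that targets c-Jun, fell from 9.76 ± 0.0165 to 3.90 ± 1.14 CPM (SD, n = 2) in TAL1-KD, a log2 fold change of -1.35 (edgeR adjusted p = 0.00145). With GSK-J4 DET1 fell from 8.10 ± 0.422 to 2.10 ± 0.0954 CPM, a log2 fold change of -1.95 (edgeR adjusted p = 4.38e-10). In UTX-KD DET1 stood at a log2 fold change of 0.02 (edgeR adjusted p = 0.846). ZFP36 and ZFP36L1, which promote decay of mRNAs with AU-rich elements, rose in all 3 comparisons, ZFP36 by 0.71, 0.34 and 0.90 and ZFP36L1 by 0.66, 0.39 and 0.75. The related ZFP36L2 rose by 0.70 in TAL1-KD and fell by 0.50 in UTX-KD and fell by 0.82 with GSK-J4. KHSRP, another decay factor, fell by 0.48 in UTX-KD and fell by 0.62 with GSK-J4.

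Of 11 genes for NFAT, calcineurin and IRF partners of AP-1 and BATF, 2 were called higher and 3 lower of 11 tested in TAL1-KD, 2 and 4 of 10 in UTX-KD, and 7 and 1 of 11 with GSK-J4, with medians of 0.02, -0.07 and 0.20. Among all genes, 54.2%, 50.5% and 74.9% were called in either direction. NFATC2 rose by 0.64 in TAL1-KD and by 0.69 with GSK-J4. The calcineurin catalytic subunit gene PPP3CB fell by 1.05 in TAL1-KD and fell by 0.81 with GSK-J4, and PPP3CA fell by 1.27 in TAL1-KD and rose by 0.17 in UTX-KD. PPP3CC, the third such gene, rose by 0.44 in TAL1-KD and by 0.69 with GSK-J4. RCAN1, a calcineurin regulator, fell by 0.44 in TAL1-KD and fell by 0.42 in UTX-KD, and IRF8, a partner of BATF proteins, rose by 0.65 with GSK-J4.

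Genes described as AP-1 targets in other settings numbered 26, of which 25 were matched. In TAL1-KD 5 were called higher and 2 lower of 13 tested, in UTX-KD 7 and 3 of 13, and with GSK-J4 12 and 2 of 17, with medians of 0.34, 0.10 and 0.69. Beside them, 54.2%, 50.5% and 74.9% of all genes were called in either direction. HBEGF, a growth factor, rose in all 3 comparisons, by 0.67, 0.39 and 1.31, and so did PLAU, the urokinase protease, by 0.91, 0.51 and 1.26. DUSP1, a phosphatase that switches off MAP kinases, also rose in all 3, by 1.63, 0.27 and 0.45 (edgeR adjusted p = 0.000186, 0.00177 and 1.14e-05). TIMP1, an inhibitor of metalloproteases, rose by 0.79 in UTX-KD and by 1.61 with GSK-J4, and TNF by 0.83 with GSK-J4. The list is a mixture of targets from several tissues, and IL2, the classical target in T cells, had too few reads to be tested in any comparison.

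Genes with levels most like those of JUN over the 6 group means were ranked by the root mean square difference of log2 levels, each gene centred on its own mean, among 12981 genes of at least 1 CPM. The 4 nearest to JUN were ABHD4 at 0.21, TNFAIP3 at 0.27, GPR18 at 0.28 and TRAF4 at 0.30. TNFAIP3, a brake on NF-kB signalling, averaged 150 ± 3.01 CPM (SD of 2 libraries) in TAL1-control against 644 ± 115 in TAL1-KD, 79.6 ± 0.149 and 148 ± 1.22 in the UTX groups, and 57.5 ± 2.00 and 248 ± 6.43 in the GSK-J4 groups. The nearest member to JUN was FOS, at 0.54, behind 111 other genes, followed by JUND at 0.55. The 5 nearest to FOS were LINC00115 at 0.16, SAT2 at 0.18, ASGR1 at 0.18, CPEB2 at 0.19 and MST1 at 0.19, and its nearest member was FOSB at 0.34. The measure rests on 6 means of 2 libraries and is a description.

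The authors' deposited table gives a log2 fold change for each of the 8 genes in the 3 comparisons. All 24 values had the sign found here, and the largest gap was 0.0997. At an adjusted p under 0.05, 20 of the 24 were called in both, and FOS in UTX-KD only here, with an adjusted p of 0.117 in the authors' deposited table. For FOSL1 with GSK-J4 the authors' deposited table gives a log2 fold change of -0.77 with an adjusted p of 0.405.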

How the data were processed

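The labels put the stranded mRNA libraries of Jurkat cells in 6 groups of 2, which make 3 comparisons. The submitters' processing notes name hg19 as the build, with DESeq2, HTSeq 0.6.1p1 and TopHat2 2.0.12 as tools, and the strand setting of the counting is not given in the sources used here. The authors deposited unnormalized counts of reads on Ensembl genes in each library, together with a log2 fold change and an adjusted p-value per gene and comparison. The log2 fold changes and the adjusted p-values deposited by the authors were used only to set beside the values computed here.

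From the counts, each comparison was fitted on its own 4 libraries in edgeR 4.0.16 (R 4.3.3) with filterByExpr, TMM scaling and the two-sided quasi-likelihood test, with Benjamini-Hochberg adjustment over all genes tested. Differences between comparisons were interaction terms over 8 libraries. Levels in CPM used 1 TMM scaling of the 12 libraries, and symbols and transcript lengths came from GENCODE 29. The procedure was tried on simulated data with the same spread beyond counting noise for every gene and library of a fit. The larger spread between the TAL1-KD libraries was not simulated, so no error rate is taken from it. Depth was 55524079 to 82534711 counted reads a library, and intervals are 95% intervals of the fit.

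The named genes were the members, TAL1 and KDM6A, the markers, up to 4 called genes of at least 1 CPM with the largest change in each list and comparison, and the 5 genes most like JUN and FOS, for which 0.1 CPM was added before taking logs. Not every gene this rule names is reported here. The members and lists were chosen with earlier results of these data known. Alternatives were library totals, DESeq2 size factors and its Wald test (DESeq2 1.42.0), other filters, an adjusted p under 0.01, 1 fit over 12 libraries, a replicate block, each library left out and, added after the data were seen, trends with GC content and length removed and a crossed block for UTX. For levels per kb, the median transcript length was also used. Differences between comparisons were not recomputed with library totals alone or with GC and length trends removed. Genome coordinates are those of RefSeq on GRCh38.p14, and no coordinates of hg19 are given.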

Additional observations from a re-analysis of the deposited data

Results flagged for a closer look

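Some members responded by different amounts in 2 comparisons, by the interaction test of edgeR with Benjamini-Hochberg adjustment over all genes. Values are differences of log2 fold changes. The fits take 1 spread per gene for all their libraries, although the TAL1-KD libraries differed more from each other. Between TAL1-KD and UTX-KD (the first minus the second) JUN differed by 0.98 (adjusted p = 0.00028), JUNB by 0.98 (adjusted p = 5.46e-05), JUND by 0.66 (adjusted p = 0.000406), BATF by 0.49 (adjusted p = 0.00715) and BATF3 by 0.69 (adjusted p = 0.00118). Between TAL1-KD and GSK-J4 JUNB differed by 0.90 (adjusted p = 1.44e-05), JUND by -0.53 (adjusted p = 0.00142) and BATF3 by 0.57 (adjusted p = 0.0021). Between UTX-KD and GSK-J4 JUN differed by -1.01 (adjusted p = 1.74e-12), JUND by -1.20 (adjusted p = 2.9e-16) and BATF by -0.52 (adjusted p = 6.11e-05). JUND is the only member of these that differed in all 3 pairings. No group has enough libraries to test a single library as an outlier.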

How the results depend on the processing

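Leaving out 1 library at a time, the number of genes called in the TAL1-KD comparison ran from 5525 to 11952, and it was 5918 at an adjusted p under 0.01, against 9120. The number called in UTX-KD was 5473 when all 12 libraries shared a fit, against 8509. The number of members called ran from 5 to 7 in TAL1-KD, 6 to 7 in UTX-KD and stayed at 7 with GSK-J4 over the same omissions. The sign of BATF3 with GSK-J4 turned under library totals alone (0.12) and after removal of GC and length trends (0.032). With 1 library left out, the TAL1-KD minus GSK-J4 difference ran from -0.16 to 0.11 for JUN and from -0.10 to 0.47 for FOS, and the UTX-KD minus GSK-J4 difference of FOSL2 from -0.20 to 0.020, none of them called. The sign turned for JUN without replicate 1 of any of the 4 groups, for FOS without J4-control replicate 2 and for FOSL2 without UTX-control replicate 2. A left-out library leaves its arm with a lone sample, which is assumed to vary like the others. The cause of these shifts was not tested. Of 314 recomputed log2 fold changes of members, 300 kept their direction and side of the threshold, 12 lost the call and 2 turned, and of 306 recomputed differences 298 kept both. Levels were recomputed with other scalings or per kb of the median transcript length. Of 117 such levels, 80 stayed within the SD of their libraries and 37 moved beyond it.

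The replicate block, which pairs libraries by number, called 9761 genes in TAL1-KD, 8344 in UTX-KD and 13488 with GSK-J4, and 7 members in each, so it changed no count of members. For each gene, the log2 difference between replicate 1 and replicate 2 was taken within each group. Between the treated and control groups of a comparison, these differences correlated at 0.20, -0.13 and -0.04 over 10968 genes. The labels do not say that numbers mark a shared culture or day. Crossing the numbers in the UTX comparison gave 4371 genes higher and 4434 lower. Depth limits FOSL1, with 1 to 8 reads a library, FOS, with 30 to 191, and FOSB, with 60 to 204.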

Other observations

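The 3 control groups differed in their levels of some members, although all are Jurkat cells without the treatment studied. The line differs between them, and J4-control was also grown in another medium than the shRNA controls, so these values belong to no comparison and were not tested. JUN stood at 26.2 ± 0.711 CPM (SD, n = 2) in TAL1-control, 14.3 ± 0.518 in UTX-control and 15.2 ± 0.745 in J4-control. JUND stood at 100.4 ± 1.47, 63.4 ± 1.40 and 54.4 ± 1.63 CPM, and BATF3 at 18.8 ± 1.03, 32.8 ± 0.112 and 30.1 ± 0.925 CPM. FOSL2 stood at 7.64 ± 0.593, 12.8 ± 1.41 and 11 ± 0.216 CPM. TAL1-control thus had the most JUN and JUND and the least BATF3 and FOSL2 of the 3, and JUNB differed by less, at 28.2 ± 0.446, 27.0 ± 0.392 and 29.8 ± 0.210 CPM. The level of the JUN genes per kb over that of the FOS genes ran from 37.2 to 38.7 in TAL1-control, from 20.6 to 22.9 in UTX-control and from 18.4 to 19.5 in J4-control.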
